A study of Mus musculus with 3 samples.

Results

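The oxidative phosphorylation genes of the mouse are the nuclear genes for the 4 respiratory chain complexes, for cytochrome c and for the ATP synthase of the inner mitochondrial membrane. They were taken by symbol from the GRCm38.p6 gene table (the coordinates of mm10): protein-coding genes that start with Nduf, Uqcr, Cox4 to Cox8 or Atp5, the genes Sdha to Sdhd, and Cyc1 and Cycs, without Cox7a1 and Cox8b. That gave 96 of 21887 protein-coding genes on placed chromosomes. Of these, 40 were counted under complex I by symbol and 8 are complex I assembly factors (the Ndufaf genes). Complex II has 4, complex III 9, complex IV 17 (Ndufa4 among them) and complex V, the ATP synthase, 17, and 1 is cytochrome c. The 40 include Ndufa4l2, Ndufb4b and Ndufb4c, so they count symbols and not subunits.

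The respiratory chain passes electrons from NADH and succinate through complexes I, II and III and cytochrome c to oxygen at complex IV, and the proton gradient so built drives ATP synthase. Brown fat is rich in mitochondria and can use this gradient to make heat, so its precursors build up the chain as they differentiate. ZFP410 is a zinc finger protein that binds DNA and is best known, in other cells, for its sites near Chd4.

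Binding was mapped by CUT&Tag, in which an antibody directs a transposase to cut the DNA around a bound protein. Brown preadipocytes positive for CD29, CD34 and Sca1 and negative for lineage markers had been sorted from male wild-type C57BL/6 mice. There were 3 libraries: ZFP410 antibody on cells given brown adipocyte differentiation medium for 3 days (called induced here), ZFP410 antibody on untreated cells, and IgG on untreated cells. All came from the same kind of sorted cell, each group had 1 library, and no IgG library of induced cells was analysed here. Whether the cells of a library came from 1 animal or several is not given in the sources used here, and peak lists hold no expression against which the cell type could be checked. Every difference below therefore compares libraries, no p-value is given, and all intervals cover counting error only.

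The lists held 7475 induced, 3256 untreated and 480 IgG peaks. The files give no read totals, but if 1 control served all 3 lists, which the sources used here do not give, the backgrounds behind the peak values put the induced library at 2.01 times the depth of the untreated one and the untreated one at 7.02 times that of IgG. The number of fragments at each summit was recovered from the authors' fold and p-value. The lowest summit called held 4 induced, 3 untreated and 2 IgG fragments. Enrichment is the number of fragments at a summit over the genome-wide background of the same library, which was 0.246 induced, 0.110 untreated and 0.0231 IgG fragments. The induced background was 2.24 times the untreated one, and numbers expected at equal enrichment use that factor.

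A few members carried ZFP410 summits just ahead of their start of transcription. The promoters of 4 members are shown because the results turn on them: Ndufv1 and Uqcrh had a summit in both ZFP410 libraries, and Ndufs8 and Ndufa6 in the induced one. Each line holds the 150 bases before the annotated start, read 5′ to 3′ towards the gene, from RefSeq on GRCm38.p6. Capitals mark the 21 bases centred on the induced summit. All 4 genes lie on the minus strand, at chr19:4012756-4012905 (Ndufv1), chr4:116075071-116075220 (Uqcrh), chr19:3912775-3912924 (Ndufs8) and chr15:82354292-82354441 (Ndufa6).
Ndufv1: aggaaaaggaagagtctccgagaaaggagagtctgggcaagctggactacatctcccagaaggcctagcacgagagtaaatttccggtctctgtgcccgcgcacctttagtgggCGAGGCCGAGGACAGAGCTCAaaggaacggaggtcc
Uqcrh: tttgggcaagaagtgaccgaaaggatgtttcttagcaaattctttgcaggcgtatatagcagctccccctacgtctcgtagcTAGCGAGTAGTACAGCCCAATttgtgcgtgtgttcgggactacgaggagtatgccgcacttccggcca
Ndufs8: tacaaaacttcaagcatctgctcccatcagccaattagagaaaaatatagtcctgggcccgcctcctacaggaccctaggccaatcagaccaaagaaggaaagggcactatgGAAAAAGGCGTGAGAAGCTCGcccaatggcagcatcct
Ndufa6: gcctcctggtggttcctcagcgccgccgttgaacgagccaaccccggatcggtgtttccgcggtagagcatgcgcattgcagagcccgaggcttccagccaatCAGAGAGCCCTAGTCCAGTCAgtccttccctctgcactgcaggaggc

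Of the 96 members 11 had a summit within 1 kb of a gene end in the induced library, or 11.5% (Wilson 95% interval 6.52 to 19.4), against 8.43% of all coding genes. In the untreated library 5 did, or 5.21% (2.24 to 11.6), against 3.73% of all coding genes. IgG had 0 of 96 (Wilson interval up to 3.85%; a limit of 3 counts would be 3.125%), against 0.0366% of all coding genes. In both ZFP410 libraries the interval of the members includes the share of all coding genes, so the count as a whole does not set these genes apart. Members with a gene-end summit in both ZFP410 libraries were Ndufv1, Uqcrh and Cyc1, or 3.12% of the 96 (1.07 to 8.79), against 2.40% of all coding genes. A further 8 members had one in the induced list alone and 2 in the untreated list alone. The lists as a whole were as unequal. Of all 21887 coding genes 1846 had one in the induced library, 816 in the untreated one and 526 in both. The split of the members is therefore not read as a gain.

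**Figure D1:**
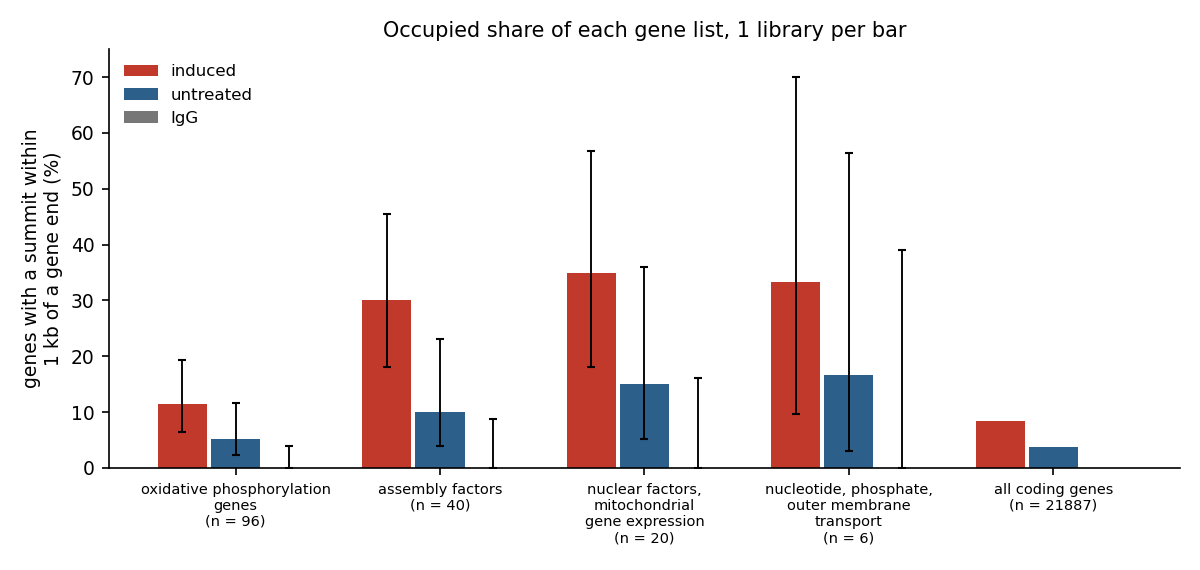
Share of genes with a summit within 1 kb of a gene end (%), for the 96 oxidative phosphorylation genes, for 3 lists of related genes and for all coding genes, in the induced, untreated and IgG libraries. Bars are shares in 1 library each and lines are Wilson 95% intervals of the lists; the members stand at 11.5% induced and 5.21% untreated, beside 8.43% and 3.73% of all coding genes.

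Complex I takes electrons from NADH, and its strongest site lay at the start of Ndufv1, the gene of the flavoprotein subunit that binds NADH. Ndufv1 (gene at chr19:4007499-4012755) held 26 fragments in the induced library and 9 in the untreated one, with no IgG peak. The induced peak spanned chr19:4012472-4013249 and the untreated one chr19:4012523-4012973 (mm10). Both summits lay on the same base, 26 bp upstream of the start. By fragments the site ranked 59 of 1846 induced and 68 of 816 untreated genes with a gene-end summit, and by the authors' fold 107 of the induced and 227 of the untreated list. Its enrichment was 106-fold over background in induced and 81.9-fold in untreated cells, a ratio of 1.29 (exact binomial 95% interval 0.586 to 3.13). The interval includes 1, so no change of occupancy at Ndufv1 was detectable at this depth. In libraries of many cells, fewer cells with a bound site and less binding per cell cannot be told apart.

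Complex I had 4 of 40 genes occupied in the induced library (10%, 3.96 to 23.1) and 3 of 40 in the untreated one (7.5%, 2.58 to 19.9). Both intervals include the share of all coding genes, 8.43% induced and 3.73% untreated. Apart from Ndufv1, the complex I sites were weaker and each was called in 1 of the libraries. Ndufs8, the gene of an iron-sulphur subunit, had 8 induced fragments (peak at chr19:3912771-3913071) 28 bp upstream of its start, and no untreated peak within 100007 bp. Ndufa6, which encodes an accessory subunit, had 7 induced fragments (chr15:82354314-82354474) 37 bp upstream. Ndufa13, the gene of the accessory subunit also known as GRIM-19, had 2 induced summits, one of 7 fragments 222 bp downstream of its annotated start and one of 4 fragments at −1064 bp from it. Of the 8 Ndufaf assembly factors, 1 was occupied in the induced library (12.5%, 2.24 to 47.1) and 0 in the untreated one. The induced interval includes the 8.43% of all coding genes. The 1 was Ndufaf3, with 8 induced fragments (chr9:108567431-108567709) 90 bp upstream of its start.

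At equal enrichment the untreated library would have held 3.57 fragments at Ndufs8 and Ndufaf3 and 3.12 at Ndufa6 and Ndufa13, next to a lowest called number of 3. Their absence from the untreated list therefore says little.

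Ndufa10 and Ndufb6, both accessory subunit genes of complex I, were called in the untreated library alone. Ndufa10 had 7 untreated fragments (chr1:92473588-92473736) 28 bp downstream of its annotated start, over a local background 5.14 times the genome background, while induced summits came no closer than 224088 bp. Equal enrichment would put 15.7 fragments there in induced cells, where 4 sufficed for a call at the genome background. How many a background as high as the untreated one would need was not tested. Ndufb6 had 5 untreated fragments (chr4:40269636-40269890), but that summit lay 847 bp past the far end of the gene and 9677 bp from its start. It fell 97 bp from the start of Topors and 165 bp from that of Smim27, so the call belongs to Ndufb6 only through the window. Induced summits came no closer than 127354 bp to Ndufb6, and equal enrichment would put 11.2 fragments at its site. Both genes are named here because the untreated library called them, which favours high untreated numbers. The expected numbers scaled from them carry no interval, and a loss on induction was not tested.

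**Figure D2:**
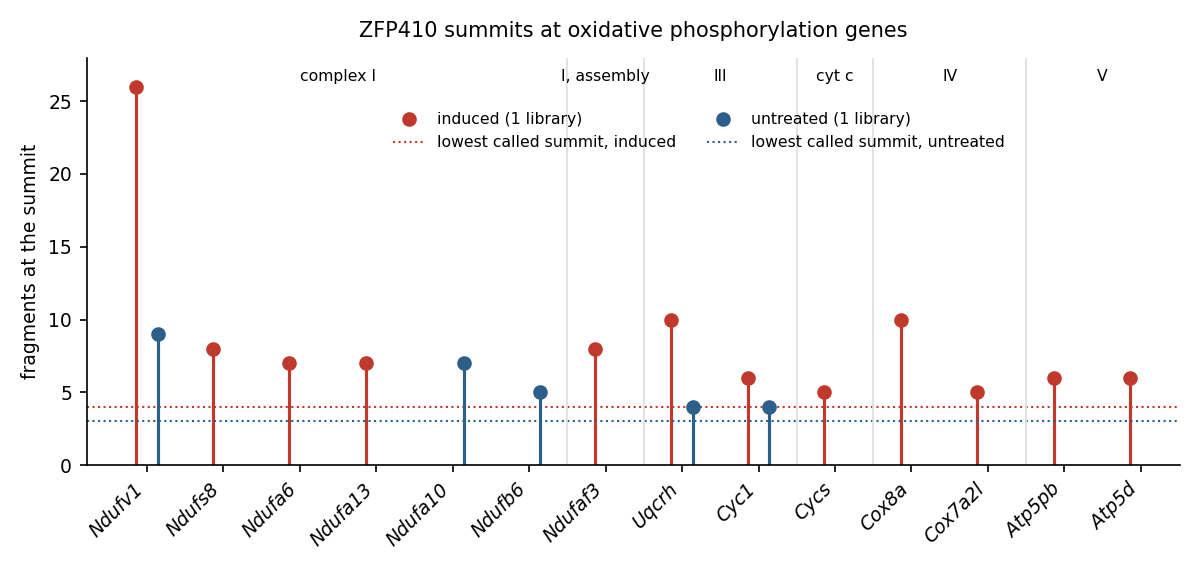
Fragments at the highest summit of each of the 14 members with a summit within 1 kb of a gene end or inside the gene, in the induced and untreated libraries (1 library each; a missing point means no called peak), grouped by complex. Dotted lines mark the lowest called summits, 4 induced and 3 untreated fragments; Ndufv1 stands apart at 26 and 9, and the other points lie at 10 or below.

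Complex II, which feeds electrons from succinate, had 0 of 4 genes occupied in each of the 3 libraries (0 to 49.0). That interval includes the 8.43% of all coding genes induced and the 3.73% untreated, so 4 genes are too few to tell. Complex III, which hands electrons to cytochrome c, had 2 of 9 in the induced and the same 2 of 9 in the untreated library (22.2%, 6.32 to 54.7, in each). The interval includes the 8.43% of all coding genes in the induced library and lies above the 3.73% in the untreated one, where it rests on 2 genes with 4 fragments each. Uqcrh, the gene of the hinge subunit, held 10 induced and 4 untreated fragments and no IgG peak. The induced peak spanned chr4:116075035-116075772 and the untreated one chr4:116075161-116075349. The induced summit lay 58 bp and the untreated summit 257 bp upstream of the start, 199 bp apart within overlapping peaks. Uqcrh shares this stretch with Lrrc41, whose start lies 199 bp from its own, and the untreated summit was the nearer of the 2 to Lrrc41, 58 bp inside it. The enrichment ratio at Uqcrh was 1.12 (0.322 to 4.87).

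Cyc1, which encodes cytochrome c1 of complex III, held 6 induced and 4 untreated fragments at its lower end on chromosome 15, with summits 54 and 11 bp outside the gene (gene at chr15:76343513-76346260). The ratio was 0.669 (0.159 to 3.23). Cycs, the gene of cytochrome c itself, which carries electrons between complexes III and IV and also takes part in apoptosis, had 5 induced fragments (chr6:50566525-50566908) 172 bp upstream of its start and no untreated peak. All 3 ratios had intervals that include 1, as the plot of enrichment ratios shows. The median over 1291 sites called in both lists at low local background was 0.829.

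**Figure D3:**
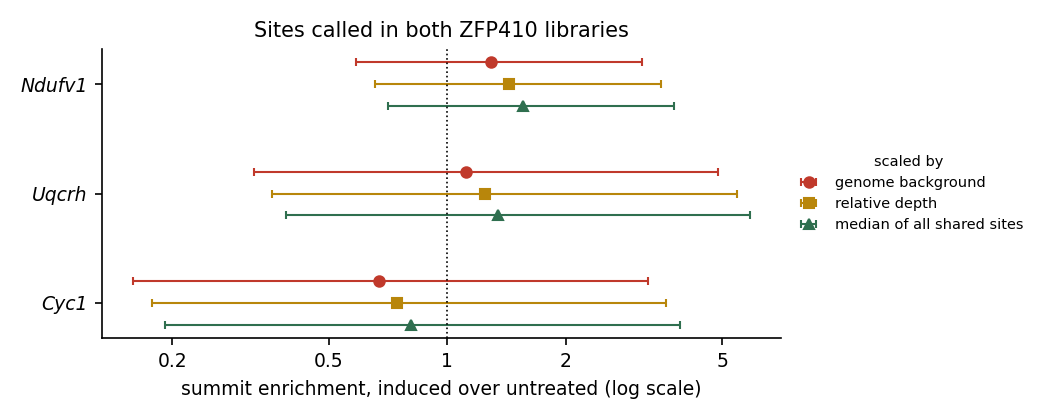
Ratio of summit enrichment, induced over untreated (log axis), at the 3 members with a gene-end summit in both ZFP410 libraries, with exact binomial 95% intervals on the fragment numbers. Colours mark 3 ways to scale the libraries; Ndufv1 lies at 1.29, Uqcrh at 1.12 and Cyc1 at 0.669 by genome background, and each interval crosses 1 under each scaling.

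Complex IV, the cytochrome c oxidase, had 2 of 17 genes occupied in the induced library (11.8%, 3.29 to 34.3) and 0 of 17 in the untreated one (0 to 18.4). Both intervals include the share of all coding genes, 8.43% induced and 3.73% untreated. Cox8a, the gene of the widely expressed form of subunit 8, had 10 induced fragments (chr19:7217332-7217713) 68 bp into the gene, the most of any member in the induced list alone. Equal enrichment would put 4.46 fragments there in untreated cells, whose nearest summit, of 3 fragments, lay 8642 bp away. Cox7a2l, whose product joins complexes III and IV into supercomplexes, had 5 induced fragments (chr17:83514394-83514569) 65 bp upstream of its start. Complex V, which makes ATP, had 1 of 17 occupied in the induced library (5.88%, 1.05 to 27.0) and 0 of 17 in the untreated one, with intervals that again include those shares. The 1 was Atp5pb, the gene of a peripheral stalk subunit, with 6 induced fragments (chr3:105959340-105959638) 338 bp upstream, a summit that also lay 103 bp inside Wdr77. Over the 8 members of the induced list alone the number expected in untreated cells ran from 2.23 to 4.46, and it fell below the lowest called number of 3 at Cycs, Cox7a2l and Atp5pb.

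The members' sites were of ordinary strength for gene ends. The median member with a gene-end summit held 7 fragments in the induced and 5 in the untreated library, and the medians over all such coding genes were the same, 7 and 5. Among peaks whose −log10 q reached 5, the induced list kept 7 members, or 7.29% (3.58 to 14.3), against 4.42% of all coding genes. These were Ndufv1, Ndufs8, Ndufa6, Ndufa13, Ndufaf3, Uqcrh and Cox8a. The untreated list kept 1, Ndufv1, or 1.04% (0.184 to 5.67), against 1.00% of all coding genes.

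Most induced summits of the members lay close to a start, and those of the untreated library were too few to say. A start was annotated in the promoter table for 77 members and 17492 coding genes, with Cyc1 among those without one. Of the members with a start, 11 had an induced summit within 1 kb of it, or 14.3% (8.17 to 23.8), against 8.89% of all coding genes. In the untreated library 3 did, or 3.90% (1.33 to 10.8), against 3.94%, and in IgG 0 of 77, against 0.0172%. Among 10 members with both an induced gene-end summit and an annotated start, 9 had it within 250 bp of the start (90.0%). Over 1520 such coding genes the share was 65.7%. No interval was computed for this band, and the difference was not tested. Within 1 kb of the start it was 10 of these 10 members (72.2 to 100), an interval that includes the 90.6% of such coding genes. The median distance to the start was 66.5 bp in the members and 169.5 bp in all such genes. In the untreated library 2 of 4 such members lay within 250 bp (50%), against 61.9% of 677 coding genes.

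**Figure D4:**
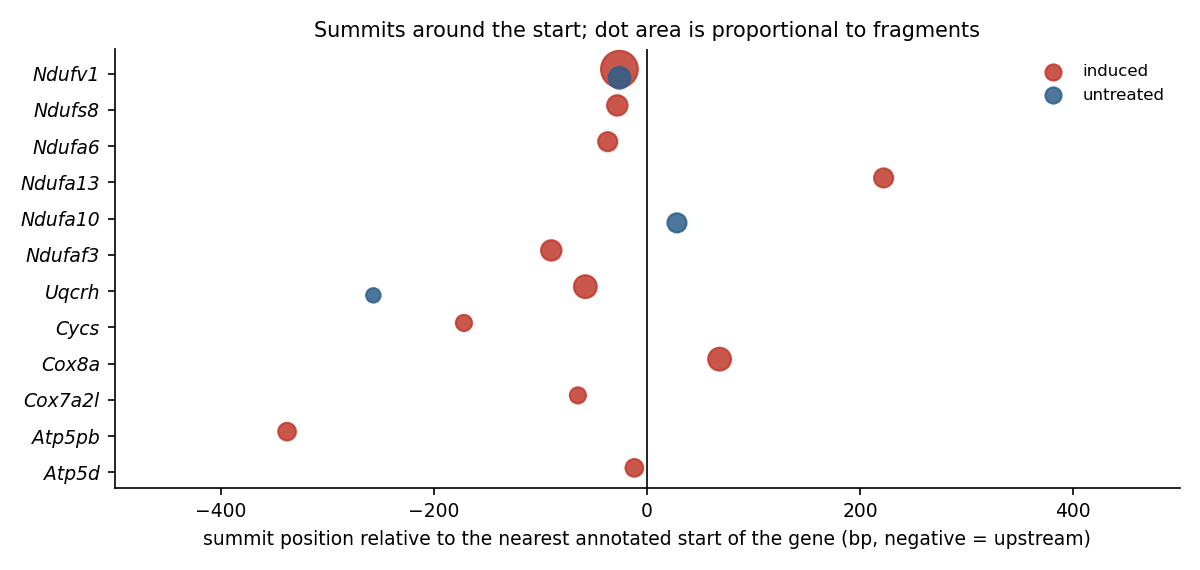
Position of member summits relative to the nearest annotated start of the gene (bp; negative is upstream), induced and untreated libraries, dot area in proportion to fragments. The Ndufv1 summits coincide at −26 bp and most others lie within 100 bp of the start; Cyc1 (no start in the table), the Ndufb6 summit and the weaker Ndufa13 summit are off the plot.

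Few summits lay inside the members, whose interiors are small. Counting summits inside a gene as well as at its ends gave 12 of 96 members in the induced library, or 12.5% (7.30 to 20.6), against 15.8% of all coding genes. In the untreated library the count stayed at 5 of 96 against 7.82%, and in IgG at 0 of 96 against 0.530%. The members are short, with a median length of 7228 bp against 17169 bp over all coding genes, so they offer less room for a summit inside. Per Mb of gene interior more than 1 kb from either end, the members held 1.00 induced and 0 untreated summits. All coding genes held 2.46 induced and 1.15 untreated summits per Mb, and the members' interiors add up to only 0.995 Mb. Over that length the rates of all coding genes also amount to only a few summits. The difference was not tested. The single inside summit was at Atp5d, the gene of a central stalk subunit of ATP synthase, with 6 induced fragments (chr10:80142220-80142426) 3565 bp from its nearer end. It lay at −12 bp from another annotated start of Atp5d.

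The other 82 members had no summit at their ends or inside in either ZFP410 library. That is the usual state of a coding gene here, since only 15.8% of all had one in the induced library and 7.82% in the untreated one. The share of all coding genes without one in both libraries was not counted, nor were the distances below taken over all coding genes. In the induced library the nearest summit to a member without one was a median of 121068 bp away, and in the untreated library 192482 bp. Those within 5 kb were Ndufb10 in both libraries (2110 and 2113 bp, 7 induced and 5 untreated fragments), Uqcr11 in the induced one (4083 bp, 12 fragments) and Atp5h in the untreated one (2538 bp, 7 fragments). Ndufb10 encodes an accessory subunit of complex I, Uqcr11 a small subunit of complex III and Atp5h a peripheral stalk subunit.

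IgG had no peak at any member site, and its depth limits what that shows. The IgG summit nearest to any member was 91284 bp away. The local background under all 13 induced summits and 4 of 5 untreated ones was at the genome-wide value, with Ndufa10 the exception. At equal enrichment IgG would have held 2.43 fragments at the induced Ndufv1 site and 1.89 at the untreated one, and under 1 at each of the other induced sites, scaled by genome background. Scaled by relative depth the Ndufv1 values were 1.84 and 1.28. The weakest IgG peak held 2. The untreated Ndufv1 value lies below 2 under both scalings, and the induced one lies above or below 2 by the scaling. At such numbers counting error leaves a call or a miss possible, so the missing IgG peak at Ndufv1 says little.

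Several member sites also lay within 1 kb of an end of a neighbouring gene. In the induced library 5 of 11 occupied members shared their peak with another coding gene end (45.5%), where 37.8% of all 1846 occupied genes did. In the untreated library 2 of 5 did, against 29.7% of 816. The induced Ndufaf3 summit lay 42 bp from an end of Dalrd3, and that of Ndufs8 689 bp from an end of Aldh3b1 but 16976 bp from an annotated start of it. Tssk6 lies at the Ndufa13 site, with starts 164 bp apart. CUT&Tag peaks of this width do not say which of 2 such genes a site belongs to.

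The promoters were searched on both strands, from 250 bases before to 50 after the start, for 4 short motifs. CCCATAAT, the core of the published ZFP410 site, was in 0 of 12 members with a gene-end summit and an annotated start. It was in 1.54% of the 65 members without a gene-end summit, which include Atp5d with its inside summit. It was in 0.624% of 1762 coding genes with a gene-end summit and in 0.532% of all 17492 coding genes with an annotated start. Below, a summit means a gene-end summit. CCGGAAG, bound by ETS factors, was in 4 of the 12 (33.3%), in 23.1% of the members without, in 23.5% of genes with a summit and in 12.9% of all. These 4 were Uqcrh, Ndufs8, Cox8a and Ndufb6. The Ndufb6 summit lay far from the promoter searched. Among the 11 members with both a gene-end summit and a summit within 1 kb of a start the count was 3 (27.3%). Of 1585 such coding genes 24.4% held it. Atp5d, with an inside summit alone, is not among these 11. TGCGCA, part of the NRF1 site and the same on both strands, was in 3 of the 12 (25.0%), Atp5pb, Ndufa6 and Ndufb6, in 24.6% of members without, in 19.3% of genes with a summit and in 11% of all. Without Ndufb6 it was in 2 of 11 (18.2%), against 20.1% of the 1585. AAGATGG, bound by YY1, was in 1 of the 12, Atp5pb (8.33%), in 16.9% of members without, in 8.40% of genes with a summit and in 7.18% of all. A match is only a run of letters, and a missing match says only that these letters are not in this window. In the stretches printed above, the Uqcrh sequence has CTTCCGG, the other strand of CCGGAAG, from position −10 and the Ndufa6 sequence has TGCGCA from position −80, counted from the start.

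Genes that build and regulate the chain were looked at beside its subunits, in lists that share no member with the 96. Of 40 assembly factor genes 12 had a gene-end summit in the induced library, or 30.0% (18.1 to 45.4), and 4 in the untreated library, or 10.0% (3.96 to 23.1), with 0 in IgG. The shares of all coding genes, 8.43% induced and 3.73% untreated, lie below these intervals. The list was chosen by hand with earlier results of these data known, so the intervals are no independent support. The induced interval overlaps that of the members, and the difference from the members was not tested. The 8 Ndufaf assembly factors count as members and are not in this list. Of them 1 was occupied in the induced library (12.5%, 2.24 to 47.1) and 0 in the untreated one. The list holds many factors of complex IV, so their number among the 12 was not read as a result. Those occupied were Cox14 with 14 fragments, Cox20 and Pet100 with 7 each, Coa5 with 6, Cox16, Cox17 and Cox18 with 5 each and Cox11 and Cox19 with 4 each. Cox17 and Cox11 take part in the delivery of copper to complex IV. Foxred1, an assembly factor of complex I, Sdhaf2, which helps attach the flavin of complex II, and Bcs1l, which inserts the iron-sulphur protein of complex III, had 10 fragments each. At Sdhaf2 and Bcs1l these stood over raised local backgrounds of 0.977 and 1.08 fragments. The 4 of the untreated library were Sdhaf2 with 8 fragments, Cox18 with 7, and Cox14 and Cox20 with 5 each, all of them also in the induced list. A further 3 had an induced summit inside the gene alone: Nubpl with 9 fragments, Cox10 with 7 and Sdhaf3 with 6.

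Of 20 genes of nuclear factors and mitochondrial gene expression, 7 had a gene-end summit in the induced library, or 35.0% (18.1 to 56.7), and 3 in the untreated one, or 15.0% (5.24 to 36.0), against 8.43% induced and 3.73% untreated of all coding genes. Lrpprc, which stabilises mitochondrial mRNA, held 13 induced fragments, Tfb2m, a mitochondrial transcription factor gene, 10, and Yy1 9, the last over a local background of 0.813 fragments. Polg2, of the mitochondrial DNA polymerase, held 7, Polrmt, the mitochondrial RNA polymerase gene, 6, the nuclear receptor gene Esrra 6 and the coactivator gene Pprc1 4. The 3 of the untreated library were Polg2 with 5 fragments and Tfb2m and Yy1 with 4 each. Nrf1, Gabpa and Tfam had no gene-end summit in either library. Ppargc1a, the gene of a coactivator of mitochondrial genes in brown fat, had 7 induced fragments deep inside the gene. Among 6 transport genes, Vdac2, of an outer membrane channel, held 11 induced and 6 untreated fragments and Vdac3 7 induced fragments, which makes 2 of 6 occupied in the induced library (33.3%, 9.68 to 70.0) and 1 of 6 in the untreated one (16.7%, 3.01 to 56.4). Both intervals are wide, the untreated one includes 3.73%, and differences from all coding genes were not tested. The regulator and transport lists were also chosen by hand with earlier results of these data known. Cox7a1 and Cox8b, the muscle and brown fat forms of their subunits, had no summit in any of the 3 libraries.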

How the data were processed

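Per the submitters' processing notes, the CUT&Tag reads went through MACS2 2.1.1, Bowtie2 2.2.6 and Picard, with mm10 as the build. The caller's control and duplicate setting were not given in the sources used here. Deposited were 3 peak lists, 1 per library, called at a q of 0.1 per the peak names. For each peak the authors give a fold (ratio) over local background, −log10 of p and q, a score (10 times −log10 q) and the summit position. These were used only within a list.

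MACS2 writes the fold as fragments plus 1 over background plus 1 and p as a Poisson tail. Both gave whole summit fragments for 7474 of 7475 induced, 3255 of 3256 untreated and all 480 IgG peaks (gap under 0.001 in −log10 p); the step was tested on simulated peaks. Relative depth was read from the step by which single control fragments raise the local background, which assumes 1 control for all 3 lists.

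Summits were placed at genes of the GRCm38.p6 table, with starts from the RefSeq promoter table, which holds 77 of the 96 members. Every member with a summit at its ends or inside in any list is named, and every other one with a summit within 5 kb. The assembly, regulator and transport lists and the motifs were written down by hand. Members and lists were chosen with earlier results of these data known. Python 3.11.15, scipy 1.17.1 and matplotlib 3.10.9 were used. Alternatives covered the window, peak thresholds, placement by overlap, start sites, local background and the scale of ratios.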

Additional observations from a re-analysis of the deposited data

How the results depend on the processing

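No paired analysis was possible because each group held 1 library. Counts of members with a gene-end summit stayed within 1.5 times of those reported with windows of 500 bp and 2 kb, with peak overlap in place of the summit and with low local backgrounds only. Where −log10 q had to reach 5, the induced count was 7, with or without summits inside genes, and the untreated count 1, with or without them. At a fold of at least 5 the untreated count was 3, with or without summits inside genes. Within 1 kb of a start the untreated count was 3. The first pair drops peaks by construction; the last leaves out Cyc1, with no annotated start, and Ndufb6, whose summit is 9677 bp from its own. At 500 bp Ndufa13 (whose gene end lies beyond its annotated start) and Ndufb6 were lost, and with low backgrounds only Ndufa10. The induced share of the members stood at 10.4% against 7.16% of all coding genes at 500 bp, and at 11.5% against 9.81% at 2 kb. Ndufv1, Uqcrh and Cyc1 stayed the 3 shared members in both windows. IgG stayed at 0 throughout. Scaled by relative depth the ratios at Ndufv1, Uqcrh and Cyc1 were 1.44, 1.24 and 0.746, and over the median shared site 1.56, 1.35 and 0.808. The IgG numbers by depth and the motif counts without Ndufb6 were chosen after seeing the data. Most member sites hold 10 fragments or fewer, so that counting error alone moves single calls.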

Other observations

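Chromosome 19 carried 3 of the 11 members with an induced gene-end summit, Ndufs8, Ndufv1 and Cox8a, out of 6 members on that chromosome. It also had the highest share of occupied coding genes of any chromosome in the induced library, 12.9% of 705. This chromosome was picked after its values were seen.

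CCAAT, the box bound by NF-Y, was searched after the promoter sequences had been seen. It was present on either strand in 7 of 12 occupied members with an annotated start (58.3%), among them Ndufs8 with 3 copies on the strand of the gene. The shares were 41.5% in members without a gene-end summit, 48.1% in all coding genes with one and 42.3% in all coding genes with an annotated start.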
